A study of Capsicum annuum and Capsicum chinense and Capsicum annuum var. glabriusculum with 33 samples.

Results

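Chiltepin is the wild pepper Capsicum annuum var. glabriusculum, a small-fruited relative of the cultivated peppers. Its single fruit library, from fruit that the labels place at breaker, was set against mature green fruit of 5 cultivated Capsicum annuum lines, 11c255, 11c320, G16, SP3 and T803. These 6 libraries were taken by name from the 33 of the series because all 6 had been sequenced to a like depth. Poly(A) RNA was sequenced in every case, and the table lists 31426 gene models with their RPKM, in which read numbers are divided by the length of the model and by the size of the library. The chiltepin plants had been kept under long days at a controlled temperature and the cultivated lines in a greenhouse, so wild against cultivated, breaker against mature green and the growth conditions cannot be told apart in this contrast. Each line was 1 library, with 1 chiltepin library against 5, so the spread given below is that between lines, not between plants. SP3 is the line of the title, and other labels of that library name SP163. As outside values at breaker, fruit of the cultivated line Zunla 1 (ZL1) and a library titled HYL, whose other labels name Zunla 1, are given beside the contrast. The HYL-titled library is called the breaker library of unclear line. Its species is unclear as well, since the series also holds Capsicum chinense and other libraries titled HYL are not counted among the C. annuum lines here.

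Breaker is the stage at which a full-sized green fruit begins to turn colour. In pepper it is known as the point at which chlorophyll is lost, plastids turn into carotenoid-storing chromoplasts and the wall of the fruit starts to soften, and it comes after the mature green stage, when growth has ended and seeds are filling. The IDs of the table were paired with gene names in none of the files used here, and 0 of the 31426 matched the RefSeq gene table of another pepper assembly. The genes are therefore described through the organs, stages and lines in which they were high, and no function is given to an ID.

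The read total recovered from the steps of the RPKM values was 29408297 for chiltepin fruit and between 25923891 and 31213971 for the 5 lines. At this depth 3 reads on a gene of 1 kb amount to an RPKM of between 0.0961 and 0.116. In chiltepin fruit 18739 genes reached 1 RPKM, against 18794 to 19335 in the 5 lines. The top 10 genes took up 13.6% of all RPKM in chiltepin fruit, within the range of the lines, where SP3 was highest at 19.7%. The most abundant gene of chiltepin fruit was Capana03g003187, at 35331 RPKM, which lay within the 30787 to 57975 RPKM of the lines. The second was Capana03g000778, at 21634 RPKM in chiltepin fruit against 523 RPKM in SP3 and 2748 to 5361 RPKM in the other lines. Of the 100 most abundant genes of chiltepin fruit, 58 were also among the 100 most abundant of 11c255 and 43 to 48 among those of each of the other lines. Across the 21735 genes that reached 1 RPKM in at least 1 of the 6 libraries, Pearson's r of log2(RPKM + 1) between chiltepin fruit and a line was between 0.79 (SP3) and 0.88 (11c255), and that between 2 lines was between 0.87 and 0.97. These are descriptions across genes, over libraries counted on the same gene models.

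Chiltepin fruit lay above all 5 lines in 5221 of the 21735 genes (24%) and below all 5 in 6261 (28.8%). A narrower set of genes was used for what follows, those in which chiltepin fruit was clear of the nearest line by at least 1 unit of log2(RPKM + 1). There were 796 such genes above the lines (3.66% of the genes tested) and 711 below them (3.27%). At 2 log2 units or more there were 206 above (0.948%) and 179 below (0.824%). Chiltepin fruit stood apart in more genes than any line did when each library was set against the 5 others. The next was SP3, which was highest by this margin in 337 genes and lowest in 550, while 11c255 was highest in 87 and lowest in 15. The libraries are not equally placed for this count, since a line with a close partner among the others can seldom be clear of all. The r between 11c255 and 11c320 was 0.965, and the highest r of chiltepin fruit with a line was 0.882. In a limma fit of the same values, with p-values adjusted by Benjamini-Hochberg over all genes tested, 299 genes were called higher (1.38%) and 162 lower (0.745%) in chiltepin fruit. That fit takes its spread from the 5 lines and assumes that the lone chiltepin library varies as they do. Its counts rest on the choice of lines: leaving out 1 line at a time gave 92 to 235 higher and 28 to 152 lower genes, with the lowest counts without 11c255. Of the genes clear of the lines, 298 of the 796 above and 161 of the 711 below were among the limma calls.

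**Figure D1:**
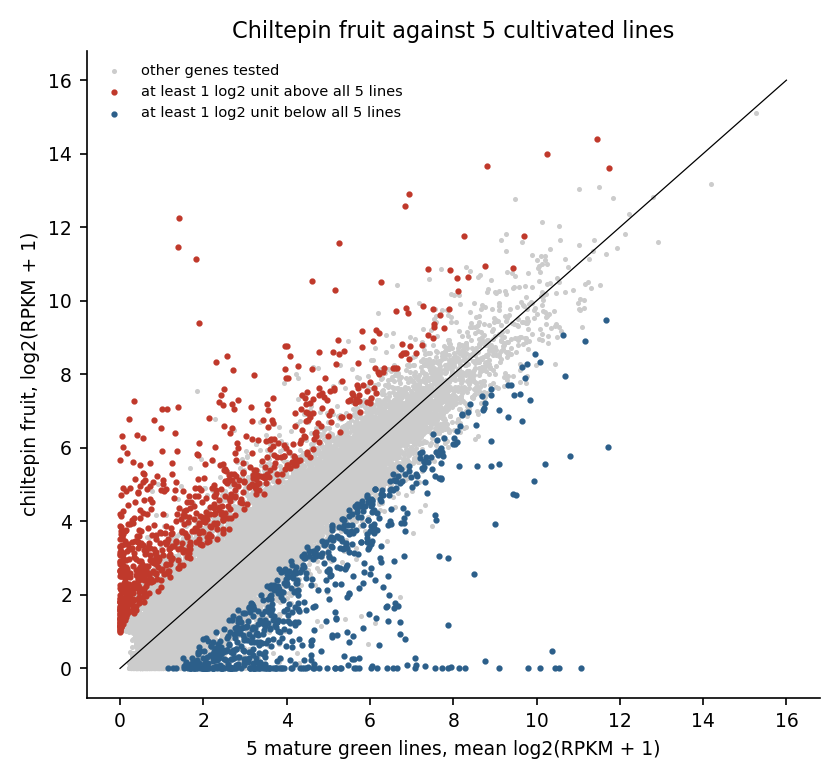
Each point is 1 of the 21735 genes tested, with the mean log2(RPKM + 1) of the 5 mature green lines on the horizontal axis and the log2(RPKM + 1) of chiltepin fruit on the vertical axis; the line marks equal values. The 796 genes at least 1 log2 unit above all 5 lines (red) and the 711 below all 5 (blue) are spread over the whole range of levels, and a row of blue points lies at 0 in chiltepin fruit.

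**Figure D2:**
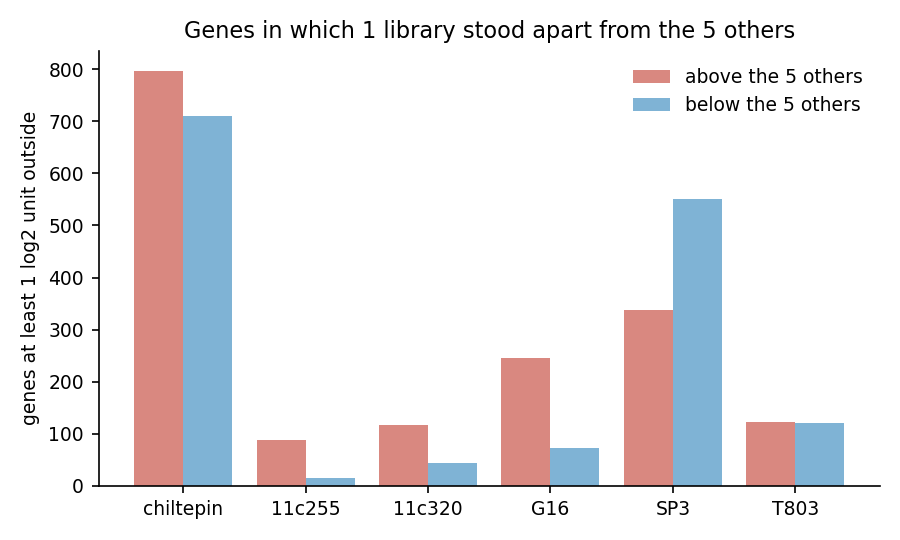
Bars give, for each of the 6 libraries, the number of genes in which it lay at least 1 unit of log2(RPKM + 1) above (red) or below (blue) all 5 others. Chiltepin fruit has the tallest bars, 796 and 711 genes, followed by SP3 with 337 and 550.

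The largest rise among the limma calls was Capana03g000776. It was at 4829 RPKM in chiltepin fruit, against 0.400 RPKM in 11c255, 0 in 11c320, 19.2 RPKM in G16, 0.481 RPKM in SP3 and 2.15 RPKM in T803. Chiltepin fruit thus lay 252 times above the highest line, and the breaker libraries were at 7.69 RPKM (ZL1) and 1.26 RPKM (unclear line). The log2(RPKM + 1) difference was 10.83 (limma SE 1.58, adjusted p = 0.0359). The call was lost without any one of 11c255, 11c320, T803 or SP3, at a limma adjusted p of 0.0625 to 0.102. Other cultivated mature green libraries held more of it than any of the 5 lines, ZJ32 with 147 RPKM and ZJ9 with 41.2 RPKM, and with all 9 lines the limma adjusted p was 0.104. It was 0.0932 with a pseudocount of 0.1 RPKM and 0.0574 with a filter of 5 RPKM. In the organs of chiltepin this gene was at 440 RPKM in leaf and 5.50 RPKM in flowers. Capana07g001623 was at 153 RPKM in chiltepin fruit, against 0 in 11c320, G16 and SP3, 0.289 RPKM in 11c255 and 1.45 RPKM in T803. The groups did not overlap, and the log2(RPKM + 1) difference was 6.94 (limma SE 0.548, adjusted p = 0.00528). With a pseudocount of 0.1 RPKM the call was lost, at a limma adjusted p of 0.0643. This gene was at 0.216 RPKM in chiltepin leaf and 20.01 RPKM in chiltepin flowers. The breaker library of unclear line held 9.94 RPKM. In Zunla 1 fruit it was at 0.0830 RPKM at breaker, and at 17.4 and 92.7 RPKM at 5 and 7 days after breaker.

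In the opposite direction Capana08g000679 was listed at 0 in chiltepin fruit, with no read, against 278 RPKM in 11c255, 224 RPKM in 11c320, 72.1 RPKM in G16, 211 RPKM in SP3 and 45.2 RPKM in T803. Against a floor of 3 reads chiltepin fruit was at least 356-fold lower than the lowest line, and the limma adjusted p was 0.0366. The gene was also listed at 0 in chiltepin leaf and flowers, in ZL1 breaker fruit and in mature green fruit of ZL1 and ZJ32. Its limma call was lost when any one of 11c255, 11c320, G16 or SP3 was left out (adjusted p of 0.0582 to 0.0961), and with the 4 other mature green C. annuum lines added, where the adjusted p was 0.702. With a filter of 5 RPKM the limma adjusted p was 0.0586, and without SP3 and G16 together it was 0.0675. Capana03g000827 was likewise listed at 0 in chiltepin fruit, leaf and flowers, against 136 RPKM in 11c255, 101 RPKM in 11c320, 130 RPKM in G16, 56.8 RPKM in SP3 and 96.8 RPKM in T803. Every line was far above the floor, so chiltepin fruit was at least 299-fold lower than the lowest of them (limma adjusted p = 0.00413). The gene was at 10.8 RPKM in ZL1 breaker fruit, 7.25 RPKM in the breaker library of unclear line and 15.0 to 94.8 RPKM in mature green fruit of the 4 other C. annuum lines. All lines were counted on 1 set of gene models, and whether chiltepin reads match these models as well as reads of the cultivated lines was not tested.

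Setting the breaker libraries beside the lines narrowed these sets. Of the 796 genes above all 5 lines, 567 (2.61% of the genes tested) were also at least 1 log2 unit above both ZL1 breaker fruit and the breaker library of unclear line. Of the 711 genes below, 306 (1.41%) were also below both. Both breaker libraries came from the shallower part of the series, at 15537060 reads for ZL1 and 14136539 reads for the unclear line. Among the genes clear of all 7 libraries, Capana03g000774 was at 63.8 RPKM in chiltepin fruit, against 0.0478 RPKM in SP3, 0.249 RPKM in T803 and 0 in the other lines and both breaker libraries (limma adjusted p = 0.00191). This gene was higher still in chiltepin leaf, at 261 RPKM, and in its flowers, at 187 RPKM, while in Zunla 1 leaf it was at 31.1 RPKM. Capana10g002155 was at 49.5 RPKM in chiltepin fruit and listed at 0 in all 5 lines, and was therefore at least 582-fold above the highest of their floors of 3 reads. With all 5 lines at 0 no spread between lines was measured for this gene, and the limma fit took its spread from other genes. Other cultivated libraries did hold it, with 103 and 115 RPKM in small Zunla 1 fruit and 78.2 RPKM in mature green fruit of ZJ9. Its limma call (adjusted p = 0.00190) was lost with the 4 other mature green lines added, at an adjusted p of 0.654.

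Among the genes below all 7 libraries, Capana06g000385 was at 4.90 RPKM in chiltepin fruit (95% Poisson interval 3.80 to 6.22, from 67 reads). The 5 lines were at 410 RPKM (11c255), 386 RPKM (11c320), 179 RPKM (G16), 801 RPKM (SP3) and 270 RPKM (T803), and the breaker libraries at 149 RPKM (ZL1) and 94.3 RPKM (unclear line). The lowest line was thus 36.6 times above chiltepin fruit (limma adjusted p = 0.0232). Capana03g000835 was at 2.97 RPKM in chiltepin fruit against 55.6 RPKM in G16, the lowest line, and 144 RPKM in SP3, the highest (limma adjusted p = 0.0186). Both limma calls were lost without any one of 11c255, 11c320 or T803, at adjusted p of 0.0714 to 0.0844 for Capana06g000385 and 0.0611 to 0.0649 for Capana03g000835. Mature green fruit of ZJ9 held 5.30 and 1.78 RPKM of these genes, and with the 4 other mature green lines added both lost their limma call, at adjusted p of 0.744 and 0.721.

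**Figure D3:**
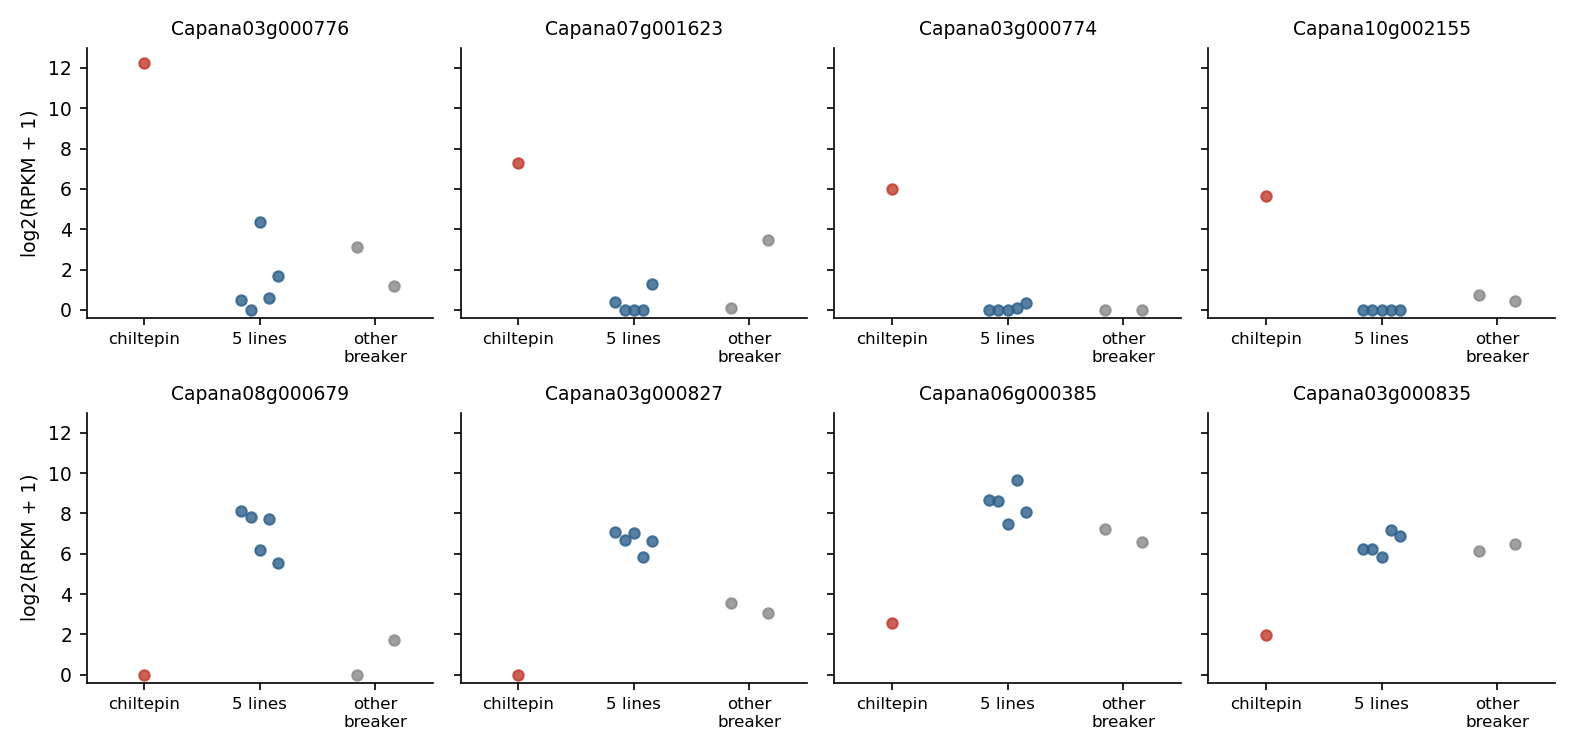
Values of the 8 genes named from the contrast, as log2(RPKM + 1), in chiltepin fruit (red), the 5 mature green lines (blue) and the other breaker libraries (grey, ZL1 left and unclear line right); each point is 1 library. In the upper row chiltepin fruit lies above every other library, and in the lower row below every line, with ZL1 breaker also at 0 for Capana08g000679.

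The breaker label was checked with genes taken from the fruit stages of Zunla 1, none of whose libraries is in the contrast. Breaker rises are the 36 genes that at breaker and at 3, 5 and 7 days after it were all at least 2 log2 units above each of the 5 stages before breaker, and breaker falls are the 49 genes with the reverse pattern. Chiltepin fruit did not show the rises. The median log2(RPKM + 1) of all 36 was 0.56 in chiltepin fruit, against 0.76 to 1.38 in the 5 mature green lines, whereas ZL1 breaker fruit, which helped to choose the list, was at 6.82. Libraries that took no part in the choice did show them, at 4.99 in the breaker library of unclear line and 6.18 in mature green fruit of ZJ49. A fruit library titled HYL-F-Dev5, with the stage code that the titles of the 5 mature green lines carry, was at 4.98. Of the 36 genes, 2 were at least 2 log2 units above the mean of the Zunla 1 stages before breaker in chiltepin fruit, against 3 to 7 in the 5 lines and 22 in the breaker library of unclear line. Only 25 of the 36 reached 1 RPKM in any of the 6 libraries. By limma 0 of the 36 were called in chiltepin fruit (5 had an unadjusted p under 0.05), while 3 (8.33%) lay above and 4 (11.1%) below all 5 lines by 1 log2 unit, beside 2.53% and 2.26% of all genes in the table. Of the 25 genes tested, 10 had reached 1 RPKM through the lines alone.

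The breaker falls gave the same picture. Their median log2(RPKM + 1) was 6.21 in chiltepin fruit, against 4.87 (SP3) to 6.96 (11c255) in the lines, 2.82 in the breaker library of unclear line and 1.07 in ZL1 breaker fruit. All 49 were at 1 RPKM or more in chiltepin fruit. The median difference from the mean of the lines was 0.23 on this scale, beside -0.07 over all genes tested, and it was -0.00289 without SP3. In these genes the chiltepin library labelled breaker therefore lay among or below the 5 mature green lines, and not with the other breaker libraries. Mature green fruit of ZJ49 did lie with those breaker libraries, at 2.11 in the falls, so the lists did not separate the stages in every line. The fruit library titled HYL-F-Dev5 was at 2.37 in the falls. The wider ripening lists ask the same only of the 3 stages after breaker. They had a median of 2.19 in chiltepin fruit against 1.72 to 2.41 in the lines for the 103 ripening rises, and of 5.61 against 4.93 to 5.91 for the 171 ripening falls.

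Single genes of these lists show the size of the gap. Capana06g000615, which averaged 10140 RPKM in Zunla 1 fruit after breaker, was at 1.91 RPKM in chiltepin fruit (95% Poisson interval 1.52 to 2.36), against 0.214 to 1.32 RPKM in the 5 lines. It was at 1583 RPKM in ZL1 breaker fruit and 189 RPKM in the breaker library of unclear line. Mature green fruit of ZJ49 was also high, at 1300 RPKM, while that of ZL1, ZJ9 and ZJ32 was at 2.37 to 4.45 RPKM. Capana03g001492, which averaged 9870 RPKM after breaker in Zunla 1, had 2 reads in chiltepin fruit, below the floor of 3 reads, against 0.310 to 1.58 RPKM in the lines and 196 RPKM in ZL1 breaker fruit. In the breaker library of unclear line it was at 2.18 RPKM, so that library did not show this rise either. Mature green fruit of ZJ49 was at 97.6 RPKM. Among the falls, Capana00g000315 was at 16138 RPKM in chiltepin fruit, against 66.7 RPKM in SP3 and 2132 to 3221 RPKM in the other lines. ZL1 breaker fruit held 6.30 RPKM of it and the breaker library of unclear line 0.611 RPKM. Mature green fruit outside the contrast was at 2.05 RPKM in ZJ49, 35.5 RPKM in ZL1, 2664 RPKM in ZJ32 and 12377 RPKM in ZJ9. Low values of this gene were therefore not confined to breaker fruit. Capana07g000070 was at 386 RPKM in chiltepin fruit, within the 103 to 1757 RPKM of the lines, and above the 67.6 RPKM of ZL1 breaker fruit.

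**Figure D4:**
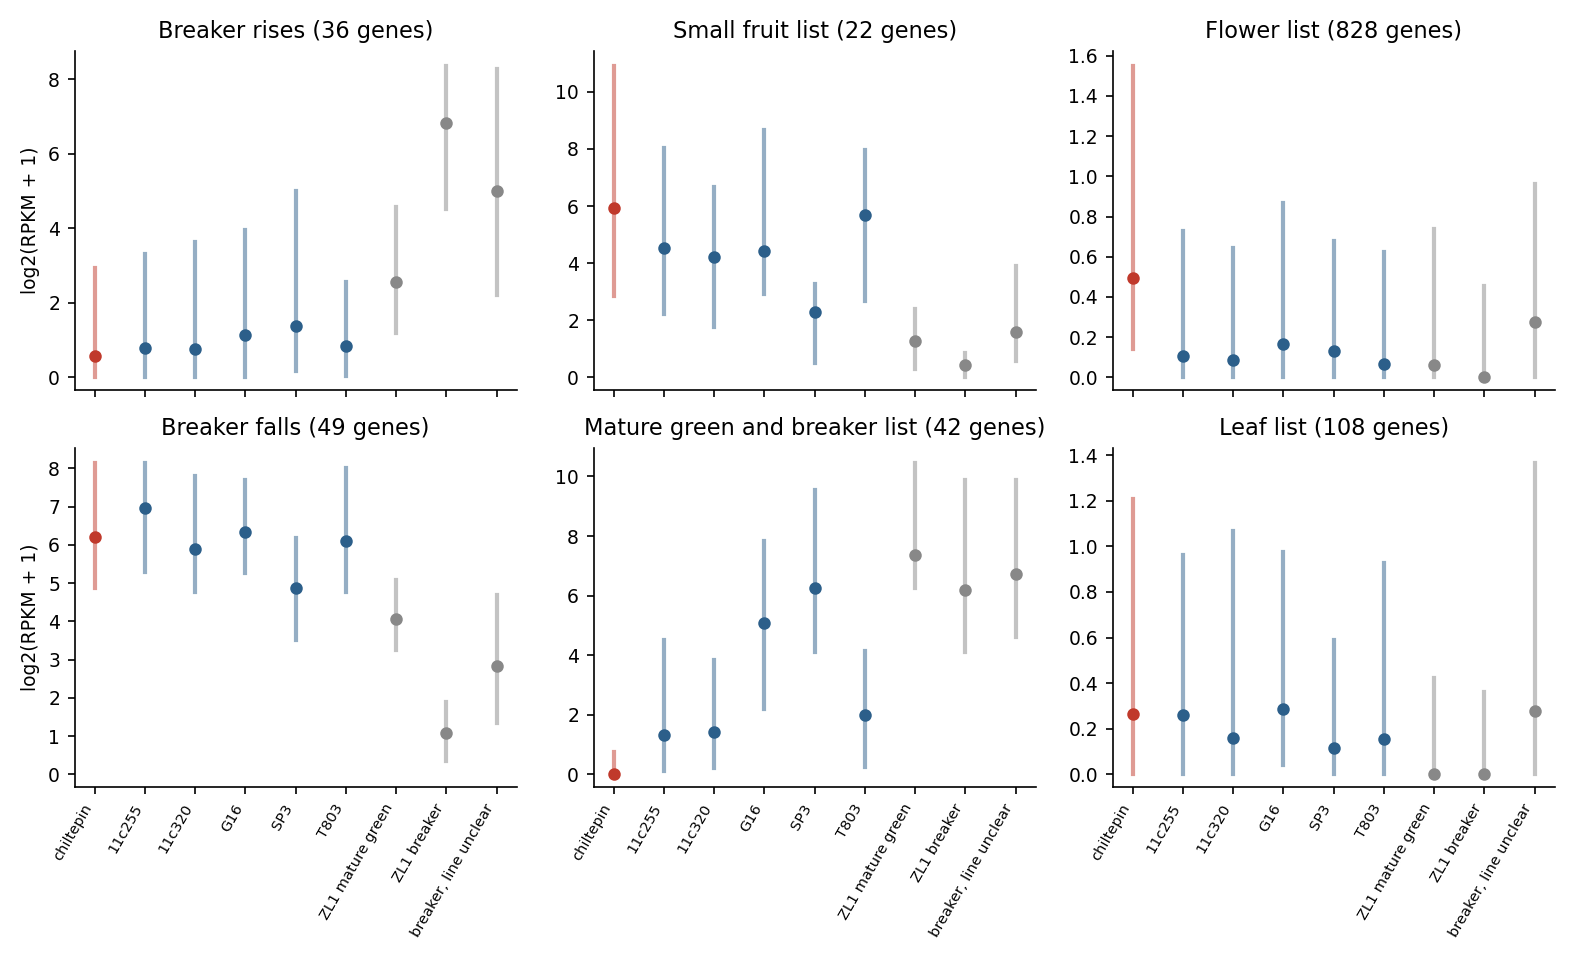
Points give the median and bars the quartiles of log2(RPKM + 1) over all genes of 6 lists taken from Zunla 1, in chiltepin fruit (red), the 5 mature green lines (blue) and, in grey, ZL1 mature green, ZL1 breaker and the breaker library of unclear line. Chiltepin fruit has the lowest median of the breaker rises (0.56) and of the mature green and breaker list (0), and the highest of the small fruit list (5.93).

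Genes that were high in Zunla 1 at the end of fruit growth were low in chiltepin fruit. The mature green and breaker list, which was added after the values had been seen, holds 42 genes that in Zunla 1 were at least 2 log2 units higher at mature green and at breaker than in each other library of that line. Together they made up 32.3% of the summed RPKM of Zunla 1 mature green fruit and 20.7% of that of Zunla 1 breaker fruit. In chiltepin fruit they made up 0.00893%, against 0.120% in 11c255, 0.153% in T803, 0.247% in 11c320, 6.84% in G16 and 14.2% in SP3. Chiltepin fruit was below all 5 lines, and the lines themselves fell into a low group and a high one. Of the 42 genes, 22 were listed at 0 in chiltepin fruit, against 0 to 8 in the lines, and 13 lay below all 5 by at least 1 log2 unit (31.0% of the list, beside 2.26% of all genes in the table). Of the 41 members tested, 31 had reached 1 RPKM through the lines alone, against 2996 of all 21735 genes tested. Such genes could not lie above all 5 and were chosen where chiltepin fruit was low. Nothing is therefore read from the share above or the share below. With limma 0 of the 42 were called and 9 had an unadjusted p under 0.05. A cultivated line outside the contrast, ZJ9, was at a like level at mature green: the 42 genes summed to 92.3 RPKM in chiltepin fruit and 110.2 RPKM in ZJ9, where 16 were listed at 0.

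Capana01g000302 carried this pattern, with no read in chiltepin fruit. It was at 323 RPKM in 11c255, 416 RPKM in T803, 736 RPKM in 11c320, 18988 RPKM in G16 and 24066 RPKM in SP3, so that chiltepin fruit was at least 1376-fold lower than the lowest line (limma adjusted p = 0.123). Capana01g000309 had no read in chiltepin fruit either, against 141 to 28679 RPKM in the lines and 51307 RPKM in ZL1 breaker fruit. The 2 IDs lie close together in number, and the gene models are equally long, at 435 bases each. Reads that fit more than 1 near-identical copy could be split between them in a way the sources used here do not describe, so the level of each single gene is uncertain. In bulk fruit, fewer cells that use such genes and less RNA of them per cell cannot be told apart.

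Genes of small fruit were high in chiltepin fruit. The small fruit list holds 22 genes that in Zunla 1 were at least 2 log2 units higher in fruit of 0 to 1 cm and of 1 to 3 cm than in each other library of that line. Their median log2(RPKM + 1) was 5.93 in chiltepin fruit, against 2.28 (SP3), 4.22 (11c320), 4.43 (G16), 4.54 (11c255) and 5.69 (T803) in the lines, 1.58 in the breaker library of unclear line and 0.44 in ZL1 breaker fruit. Of the 22 genes, 6 (27.3%, beside 3.66% of the genes tested) were above all 5 lines by at least 1 log2 unit and 0 were below. The limma fit called 0 of them, with 3 at an unadjusted p under 0.05. Capana07g000107 was at 6132 RPKM in chiltepin fruit, against 1.20 RPKM in SP3, 40.5 RPKM in 11c320, 96.1 RPKM in 11c255, 1018 RPKM in G16 and 2113 RPKM in T803. Chiltepin was the highest of the 6, and the lines themselves ranged over more than the gap to it (limma adjusted p = 0.438). Mature green fruit of ZJ9, at 57293 RPKM, and of ZJ32, at 12682 RPKM, was above chiltepin fruit. The whole list made up 9.23% of the summed RPKM in ZJ9, 1.52% in ZJ32 and 2.56% in chiltepin fruit. Its median was 4.81 in ZJ9 and 2.65 in ZJ32, below that of chiltepin fruit.

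The flower list, 828 genes at least 2 log2 units higher in bud and open flower of Zunla 1 than in each other library of that line, was also higher in chiltepin fruit, at low levels. Of the 828 genes, 281 were at 1 RPKM or more in chiltepin fruit, against 163 to 184 in the 5 lines. Their sum was 0.368% of the summed RPKM in chiltepin fruit, against 0.182% to 0.255% in the lines, and 16.9% in chiltepin flowers. At least 1 log2 unit above all 5 lines were 96 of them (11.6% of the list) and below were 4 (0.483%), beside 2.53% and 2.26% of all genes in the table. The limma fit called 76 higher (9.18%) and 1 lower (0.121%), beside 0.951% and 0.515% of all genes in the table. Only 353 of the 828 reached 1 RPKM in any of the 6 libraries. Of these, 111 did so through chiltepin fruit alone, against 442 of all 21735 genes tested, and had to lie above all 5 lines. The counts of genes above the lines and of limma calls were not separated from these genes, so nothing is read from them. Capana04g001678 was at 28.9 RPKM in chiltepin fruit, against 0.298 RPKM in G16 and 0 in the other lines (limma adjusted p = 0.00280). Chiltepin flowers held 8816 RPKM of it and chiltepin leaf 12.7 RPKM, against 0 in Zunla 1 leaf. The pattern was not particular to the fruit of chiltepin. In chiltepin leaf 239 of the 828 genes were at 1 RPKM or more, and the list made up 0.796% of the summed RPKM. Whether RNA of flower parts or of another library is present in the chiltepin fruit library was not tested.

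For leaf, root and stem the median of each list in chiltepin fruit lay within the range of the lines. The 108 leaf genes had a median log2(RPKM + 1) of 0.26 in chiltepin fruit, against 0.11 to 0.29 in the lines, with 10 of them (9.26%) above all 5 lines and 2 (1.85%) below, beside 2.53% and 2.26% of all genes in the table. Of these leaf genes limma called 4 higher and 0 lower, and 8 of the 48 tested had reached 1 RPKM through chiltepin fruit alone. The 502 root genes were at 0.20 in chiltepin fruit against 0.09 to 0.29 in the lines, with 16 above (3.19%) and 6 below (1.20%). The 50 stem genes were at 0.73 in chiltepin fruit against 0.24 to 1.22 in the lines, with 1 of the 50 above and 0 below. The highest gene of each list in Zunla 1 lay within the range of the lines. Capana01g004425 of leaf was at 27.7 RPKM in chiltepin fruit against 3.10 to 40.2 RPKM in the lines, Capana00g003322 of root at 2380 RPKM against 356 to 3349 RPKM, and Capana06g000782 of stem at 173 RPKM against 143 to 679 RPKM.

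Chiltepin leaf and flowers, which took no part in the contrast, were used to see how far the differences of the fruit reach into other organs of the plant. Of the 796 genes above all 5 lines in fruit, 234 (29.4%) were also higher by at least 1 log2 unit both in chiltepin leaf than in Zunla 1 leaf and in chiltepin flowers than in bud and open flower of Zunla 1, and 3 (0.377%) were lower in both. Over all genes tested these shares were 5.53% and 3.51%. Of the 711 genes below all 5 lines in fruit, 113 (15.9%) were lower in both organs and 9 (1.27%) were higher. The leaf comparison was uneven, with 13.6% of all genes tested higher in chiltepin leaf and 31.6% lower. In leaf alone these shares were 52.4% and 9.92% for the genes above the lines in fruit, and 5.63% and 48.9% for the genes below. The chiltepin libraries are about as deep as the lines, while those of Zunla 1 are shallower, at 12691809 reads in leaf and 14312816 reads in open flower, and the comparison is with 1 line only.

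**Figure D5:**
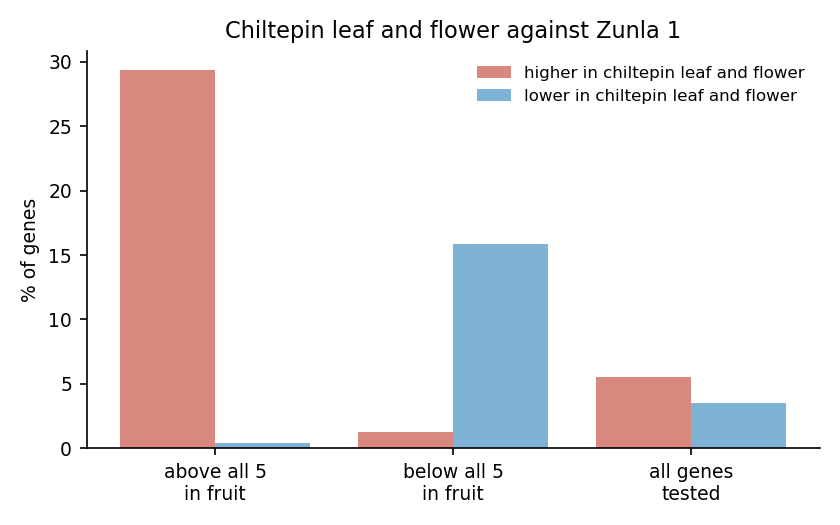
Bars give the share of genes that were at least 1 unit of log2(RPKM + 1) higher (red) or lower (blue) in both leaf and flowers of chiltepin than in those organs of Zunla 1, for genes above all 5 lines in fruit, genes below all 5 and all genes tested. The share is 29.4% higher against 0.377% lower for the genes above, and 1.27% against 15.9% for the genes below.

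Among the genes higher in all 3 chiltepin organs, Capana03g003539 was chosen because its lowest value over the 3 organs was the highest. It was at 13088 RPKM in chiltepin fruit, against 133 RPKM in T803, 237 RPKM in 11c320, 523 RPKM in 11c255, 534 RPKM in SP3 and 2111 RPKM in G16. Chiltepin leaf held 3878 RPKM against 30.6 RPKM in Zunla 1 leaf, and chiltepin flowers 13592 RPKM against 2329 RPKM in bud and 719 RPKM in open flower of Zunla 1. The difference in fruit missed the threshold of the limma fit (adjusted p = 0.158). Capana02g000541 was at 1811 RPKM in chiltepin fruit against 93.0 to 776 RPKM in the lines, and at 30645 RPKM in chiltepin leaf against 2519 RPKM in Zunla 1 leaf. Among the genes lower in all 3 organs, Capana04g000335 was at 71.9 RPKM in chiltepin fruit against 318 to 759 RPKM in the lines (limma adjusted p = 0.0557). Its leaf values were 11.4 RPKM in chiltepin against 1450 RPKM in Zunla 1, and the breaker library of unclear line, at 60.2 RPKM in fruit, was as low as chiltepin fruit.

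The differences were also set beside the step that Zunla 1 takes between mature green and breaker. Of the 796 genes above all 5 lines, 61 (7.66%) were at least 1 log2 unit higher in Zunla 1 at breaker than at mature green and 69 (8.67%) were lower. Of the 711 genes below, 123 (17.3%) were lower at breaker in Zunla 1 and 63 (8.86%) higher. Over all genes tested 3.45% were higher and 8.10% lower at breaker in Zunla 1, where each stage is 1 library of the shallower set. This comparison was added after the values had been seen.

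Presence and absence were taken as under 0.1 RPKM on one side and 5 RPKM or more on the other. Of the 21735 genes tested, 44 were off in chiltepin fruit and on in all 5 lines, and 36 of these were listed at 0. Another 20 were on in chiltepin fruit and off in all 5. Of the 44, 28 were off in chiltepin leaf and flowers as well, and 26 were on in both other breaker libraries. Of the 20, 6 were at 5 RPKM or more in all 3 chiltepin organs, and 3 were off in all 14 Zunla 1 libraries. The shares of all genes that meet these further conditions were not counted, so nothing is read from these subsets. Of the genes off in chiltepin fruit, Capana01g000310 and Capana03g003296 had no read there, against 231 to 24883 RPKM and 133 to 22388 RPKM in the lines. Of the pair, Capana03g003296 is a member of the mature green and breaker list. Of the genes on in chiltepin fruit, Capana05g002372 was at 79.7 RPKM, against 0.0995 RPKM in 11c255, 0.0799 RPKM in SP3 and 0 in the other lines, yet at 39.6 RPKM in ZL1 breaker fruit. Capana03g004035 was at 25.1 RPKM in chiltepin fruit against 0.0418 RPKM in 11c320 and 0 in the other lines, and at 0.961 RPKM in ZL1 breaker fruit.

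Genes that stood apart tended to carry neighbouring ID numbers. Where the next ID number was also tested, it was clear of the lines in the same direction for 59 of 478 genes above (12.3%), against 463 of all 13301 such genes (3.48%). For the genes below it was 44 of 427 (10.3%), against 425 of 13301 (3.20%). One run of 3 consecutive numbers above the lines went from Capana03g000774 to Capana03g000776, both named above, and Capana03g000778, the second most abundant gene of chiltepin fruit, lies a few numbers on. The last was above all 5 lines by 2.01 log2 units, and at 12479 RPKM in chiltepin leaf against 0.330 RPKM in Zunla 1 leaf. Neighbouring numbers may belong to copies that share reads, which was not tested.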

How the data were processed

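The authors deposited 1 table of RPKM, which they had scaled by gene length and library size. The libraries were strand-specific, of poly(A) RNA, per the labels' protocols and the design text. Aligner, counter, build and annotation: not given in the sources used here.

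Low RPKM values moved in steps of 1 read. These steps gave gene lengths, as multiples of 3 bases, for 25556 genes (median 969 bases), with values whole within 0.01 reads, a share partly fixed by the choice of genes. They also gave the read totals, 94.1% to 98.2% of which lay in those genes, against 31.4% to 32.7% with lengths as multiples of 1 base. The recovery and the fit were tested on simulated data. Floors are 3 reads, and intervals and floors cover counting error only.

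A gene was tested if any of the 6 libraries reached 1 RPKM. The two-sided fit on log2(RPKM + 1) used limma 3.58.1 in R 4.3.3, by lmFit and eBayes with a trend, with Benjamini-Hochberg adjustment and a threshold of 0.05. Log2(RPKM + 1) understates the change of low genes. Lists came from Zunla 1 libraries, with a margin of 2 log2 units. The genes, libraries and lists were chosen with earlier results of these data known. At most 2 IDs in each direction were named per comparison, by the largest difference, the highest value in a list or the highest level, at 10 RPKM or more for the contrast. The run of neighbouring IDs was chosen after its values were seen. Alternatives were a pseudocount of 0.1 RPKM, other filters, median-of-ratios scaling, leaving out each line and other sets of lines.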

Additional observations from a re-analysis of the deposited data

Results flagged for a closer look

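In groups of 5 libraries, a value was taken as standing apart where its gap to the nearest line was over 0.71 of the range of all 5 lines, on log2(RPKM + 1). For normally distributed values, chance alone gives about 1 such case in 20 groups. That rate does not hold where all other lines are at 0, since any value above 0 is then flagged, as in Capana04g001678 and Capana03g004035. Among the 5 lines, SP3 stood apart on the low side in Capana00g000315, at 6.08 against 11.06 to 11.65, in Capana03g000778, at 9.03 against 11.42 to 12.39, and in the median of the ripening falls, at 4.93 against 5.70 to 5.91. The other cases were lines slightly above the rest at low levels. Of 38 groups examined, 7 held such a value. T803 stood apart in Capana07g001623, at 1.29 against 0 to 0.37, and in Capana03g000774, at 0.32. G16 stood apart in Capana04g001678, at 0.38, and 11c320 in Capana03g004035, at 0.0590.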

How the results depend on the processing

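No paired analysis was possible because chiltepin fruit is 1 library and the labels carry no replicate numbers. Of the counts of genes clear of the lines, 796 above and 711 below, a pseudocount of 0.1 RPKM gave 1333 below, a margin of 2 log2 units gave 206 and 179, all 9 C. annuum mature green lines gave 501 and 202, and leaving out SP3 and G16 together, chosen after the data were seen, gave 1346 and 1473. Without 1 line at a time they were 879 to 1093 above and 779 to 981 below. Of the limma counts, 299 higher and 162 lower, a pseudocount of 0.1 RPKM gave 115 higher, no filter 697 higher, a filter of 5 RPKM 32 and 58, all 9 lines 39 lower, and no SP3 and G16 380 lower; 1 line left out gave 92 to 235 and 28 to 152. The median difference of the breaker rises, -0.0398, was -0.55 among members at 5 RPKM and -0.74 with 9 lines, where that of the ripening rises was -0.56 and of the ripening falls 0.74; that of the breaker falls, 0.23, was 0.94 with 9 lines. Leaving out 1 line gave medians of -0.0917 to -0.00466 for breaker rises, -0.00289 to 0.40 for breaker falls, -0.16 to -0.0471 for ripening rises and 0.0256 to 0.37 for ripening falls. Scaling moved the median of all genes from -0.07 to 0.00601. The cause of these shifts was not tested. Of the named genes of the contrast, 24 of 88 alternative fits lost the limma call and 0 changed direction. The on and off counts, and the counts beside both breaker libraries, stayed within 1.5 times of their values under the alternatives run.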
